A study of Cynoglossus semilaevis with 6 samples.

Results

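The genes described here are 24 liver transcripts of half-smooth tongue sole whose level was higher in every low salinity library than in any high salinity library, with the genes of cholesterol synthesis left out. They were chosen from 34751 features by their RPKM (reads scaled by feature length and by library size). A member is a RefSeq protein-coding transcript with at least 1 RPKM in the lowest LS_L library and with that value at least 1.5 times the highest HS_L library. Its mean over the libraries had to be under 500 RPKM, its LS_L_1 value under 2 times the larger of LS_L_2 and LS_L_3, and its place off the W and Z chromosomes. Of 31619 such transcripts, 7285 reached the minimum level, 43 also met the ratio, 37 of these lay off W and Z, and 24 remained once a list of 14 transcripts (of cholesterol synthesis genes and miox, 13 of them among the 37) was left out. The remaining genes are not free of sterol metabolism, because srebf2, srd5a1 and the 3-keto-steroid reductase-like gene LOC103395808 are among them.

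The fish were all females of 10 months of age, held for 60 days at 15 ppt (LS_L) after a stepwise lowering of salinity, or at 30 ppt throughout (HS_L). RNA of 3 livers from the same tank was pooled for each library, and 3 tanks per salinity gave LS_L_1 to LS_L_3 and HS_L_1 to HS_L_3. The spread between replicates is therefore a spread between tanks of pooled fish, and no single fish can be told apart in these values.

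A fish moved to dilute water gains water and loses ions, and the liver takes part in the response chiefly as the organ that supplies fuel, lipids and plasma proteins. Cytosolic acetyl-CoA and NADPH are the common raw materials of fatty acids and sterols, and the transcription factor SREBP2 switches on sterol synthesis when membrane cholesterol is low. Plasma proteins leave the hepatocyte through the endoplasmic reticulum (ER) and the Golgi, between which coated vesicles run in both directions.

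**Figure D1:**
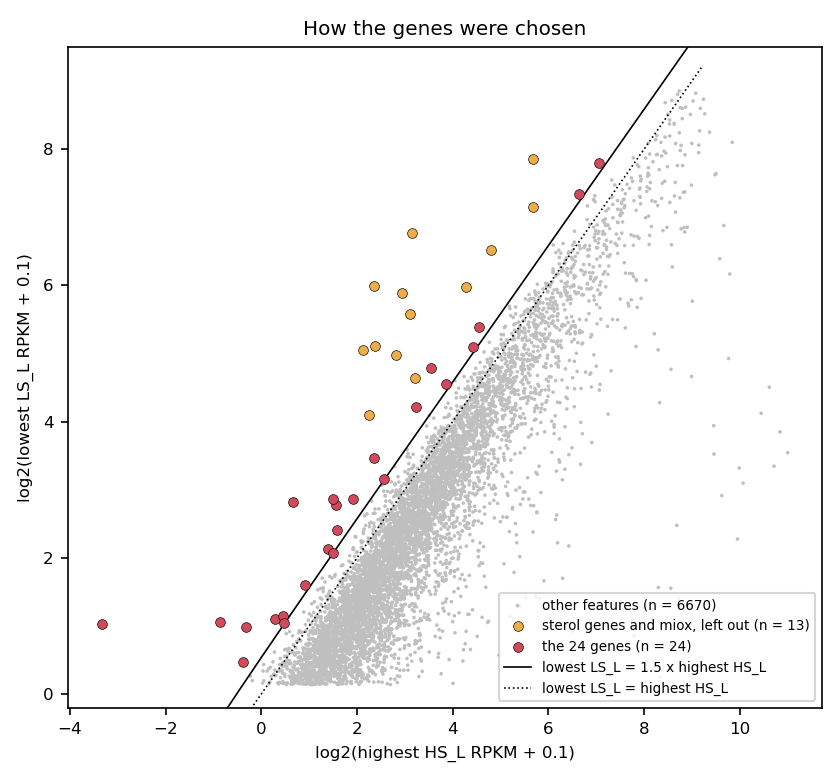
Highest HS_L RPKM (x axis) against lowest LS_L RPKM (y axis), both as log2 of the value plus 0.1, for the 6707 protein-coding transcripts off W and Z with at least 1 RPKM in the lowest LS_L library and a mean under 500. The 24 genes and the 13 transcripts left out lie above the solid line at a ratio of 1.5, and the dotted line marks equal values.

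The choice rests on the same comparison that the values below describe, so the values are a description and carry no test. The other conditions, apart from the cap on LS_L_1 and the list left out, were met by 6707 transcripts. Of these, 37 (0.552%) met the ratio of 1.5. The mirrored condition, with the lowest HS_L library at least 1.5 times the highest LS_L library, was met by 68. The number of transcripts open to that mirrored condition was not counted, so 68 has no share to set beside 0.552%. Just inside the threshold were csf1b with a ratio of 1.5003, kdelr3 with 1.51 and srd5a1 with 1.52. Just outside were lsm7 with 1.495, itpka with 1.490 and dpagt1, an enzyme that starts the sugar chain of N-glycosylation, with 1.478. The scatter of the lowest LS_L against the highest HS_L value shows that most of the 24 sit close to the line, while the 12 sterol transcripts left out had a median ratio of 5.08.

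Between 16176689 and 19428740 reads per library could be recovered from RPKM and feature length. Their size factors (medians of ratios) lay between 0.868 in LS_L_3 and 1.20 in LS_L_1, and the 20 features with most reads took 41.9% to 46.8% of a library. Across the 9343 features with a mean of at least 1 RPKM, limma on log2(RPKM scaled by size factors + 1) called 4 (0.0428%), where a call asked for a log2 fold change past 1 and a false discovery rate under 0.05. All 4 were higher in LS_L and were among the sterol genes left out here. With the replicate number as a block, 0 were called. Of the 24 genes, 23 entered this fit and 0 were called, either by limma or by limma-voom on the recovered reads. All 23 had an unadjusted p under 0.05 in both fits, as had 614 of all features (6.57%) in the first, but the genes had been picked on these very libraries. Their lowest adjusted p from limma was 0.0552, for slc8a4a. The study itself used DESeq2 at the same thresholds on these libraries. It called far more genes than the 4 called here, and more of them lower than higher in LS_L. The cause of this difference was not tested. Its called genes with LS_L higher include idh1, LOC103395808, srebf2, LOC103385685 and LOC103394918. Among the genes it measured by qPCR were ctsk and anxa3.

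Among genes of ion and solute transport, the sodium/calcium exchanger slc8a4a had the widest gap of those measured in both groups. Exchangers of this family carry calcium out of the cell against sodium. The slc8a4a transcript (chromosome 19, 3430098 to 3450319, minus strand, Cse_v1.0) had 8.15, 10.0 and 6.97 RPKM in LS_L_1, LS_L_2 and LS_L_3, against 1.48, 0.917 and 0.499 RPKM in HS_L_1, HS_L_2 and HS_L_3. Its lowest LS_L library was 4.70 times its highest HS_L library, and the means were 8.39 ± 1.55 RPKM in LS_L and 0.967 ± 0.494 RPKM in HS_L (SD, n = 3 each). The fitted log2 fold change was 2.29 (SE 0.24), and it lay between 2.14 and 2.45 when any 1 library was left out. It was 3.10 with a pseudocount of 0.1 and 3.22 with limma-voom.

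The potassium channel-interacting gene kcnip1a codes for a calcium-binding partner of voltage-gated potassium channels in mammals. It (chromosome 15, 9994195 to 10020158, plus strand) had 1.93, 24.6 and 25.9 RPKM in LS_L_1, LS_L_2 and LS_L_3, and 0 RPKM in each HS_L library. The LS_L_1 pool held 63 reads of it, against 854 and 947 in LS_L_2 and LS_L_3, so the groups did not overlap but LS_L_1 stood far below the other two. With a floor of 3 reads per HS_L library, its mean in normalized reads was at least 222-fold higher in LS_L, and the LS_L_1 value alone was at least 17.4-fold higher.

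The third transport gene, LOC103394918 (chromosome 19, 4123108 to 4125281, plus strand), is annotated as a sodium-dependent dopamine transporter-like protein. Its values were 18.4, 21.8 and 23.1 RPKM in LS_L_1, LS_L_2 and LS_L_3, against 7.54, 4.12 and 9.33 RPKM in HS_L_1, HS_L_2 and HS_L_3. The 3 LS_L pools were close to each other, and the HS_L pools spread over more than their own lowest value. The ratio of the means was 3.02, with a log2 fold change of 1.53 (SE 0.34).

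The lipid genes were led in level by LOC103395808 (chromosome 20, 201791 to 205367, minus strand), whose namesake reduces a keto group of sterol intermediates on the way to cholesterol. It had 42.0, 48.5 and 49.2 RPKM in LS_L_1, LS_L_2 and LS_L_3, against 23.5, 12.1 and 12.4 RPKM in HS_L_1, HS_L_2 and HS_L_3. HS_L_1 was the highest of its group here, and the ratio of the means was 2.91. The enzyme idh1 (chromosome 16, 1353324 to 1362713, minus strand) makes cytosolic NADPH while it oxidises isocitrate. Its values were 27.4, 29.3 and 28.6 RPKM in LS_L_1, LS_L_2 and LS_L_3, against 7.17, 7.18 and 11.6 RPKM in HS_L_1, HS_L_2 and HS_L_3. The highest LS_L pool was 1.07 times the lowest, and HS_L_3 was the HS_L pool nearest to them. The means were 28.4 ± 0.951 RPKM in LS_L and 8.65 ± 2.56 RPKM in HS_L (SD, n = 3 each), with a log2 fold change of 1.64 (SE 0.31).

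ATP citrate lyase, which splits exported citrate into acetyl-CoA for fatty acid and sterol synthesis, is present as 2 genes, and only aclyb (chromosome 8, 1478664 to 1492691, minus strand) met the conditions. It had 7.15, 7.72 and 7.19 RPKM in LS_L_1, LS_L_2 and LS_L_3, against 3.68, 3.54 and 3.40 RPKM in HS_L_1, HS_L_2 and HS_L_3. The paralog aclya had 10.2, 21.5 and 20.9 RPKM in LS_L_1, LS_L_2 and LS_L_3, against 7.77, 17.5 and 12.2 RPKM in HS_L_1, HS_L_2 and HS_L_3. The aclyb groups were tight in deposited RPKM, and they were apart by the choice of the gene. LS_L_1 of aclya, which was not chosen, lay below 2 of the HS_L pools. Under size factors aclyb had 5.69, 7.89 and 8.92 RPKM in LS_L_1, LS_L_2 and LS_L_3. The log2 fold changes were 0.89 (SE 0.21) for aclyb and 0.46 (SE 0.52) for aclya, and the difference between them was not tested.

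The regulator srebf2, which encodes SREBP2, lies on chromosome 17 (12581860 to 12592337, plus strand) and overlaps another transcript on its own strand. The authors removed reads that mapped to multiple genes, so reads shared by these transcripts may be missing and their levels too low. It had 5.22, 7.47 and 6.56 RPKM in LS_L_1, LS_L_2 and LS_L_3, against 1.53, 2.90 and 0.932 RPKM in HS_L_1, HS_L_2 and HS_L_3. The overlapping transcript LOC103393393 had 5.21, 7.99 and 7.12 RPKM in LS_L_1, LS_L_2 and LS_L_3, against 3.53, 11.6 and 5.58 RPKM in HS_L_1, HS_L_2 and HS_L_3. HS_L_2 was thus the highest HS_L pool for both. The groups overlapped for LOC103393393, while those of srebf2 were apart by its choice. The log2 fold change of srebf2 was 1.47 (SE 0.36). The lowest RPKM of the lipid genes was that of srd5a1 (chromosome 18, 4164228 to 4167618, minus strand), a steroid reductase that makes dihydrotestosterone from testosterone. It had 1.96, 2.07 and 1.97 RPKM in LS_L_1, LS_L_2 and LS_L_3, against 1.29, 0.499 and 0.861 RPKM in HS_L_1, HS_L_2 and HS_L_3. It also overlaps a second transcript of the same gene, so its level may be too low as well. These values rest on 39 to 44 reads in an LS_L library and 11 to 24 reads in an HS_L library.

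**Figure D2:**
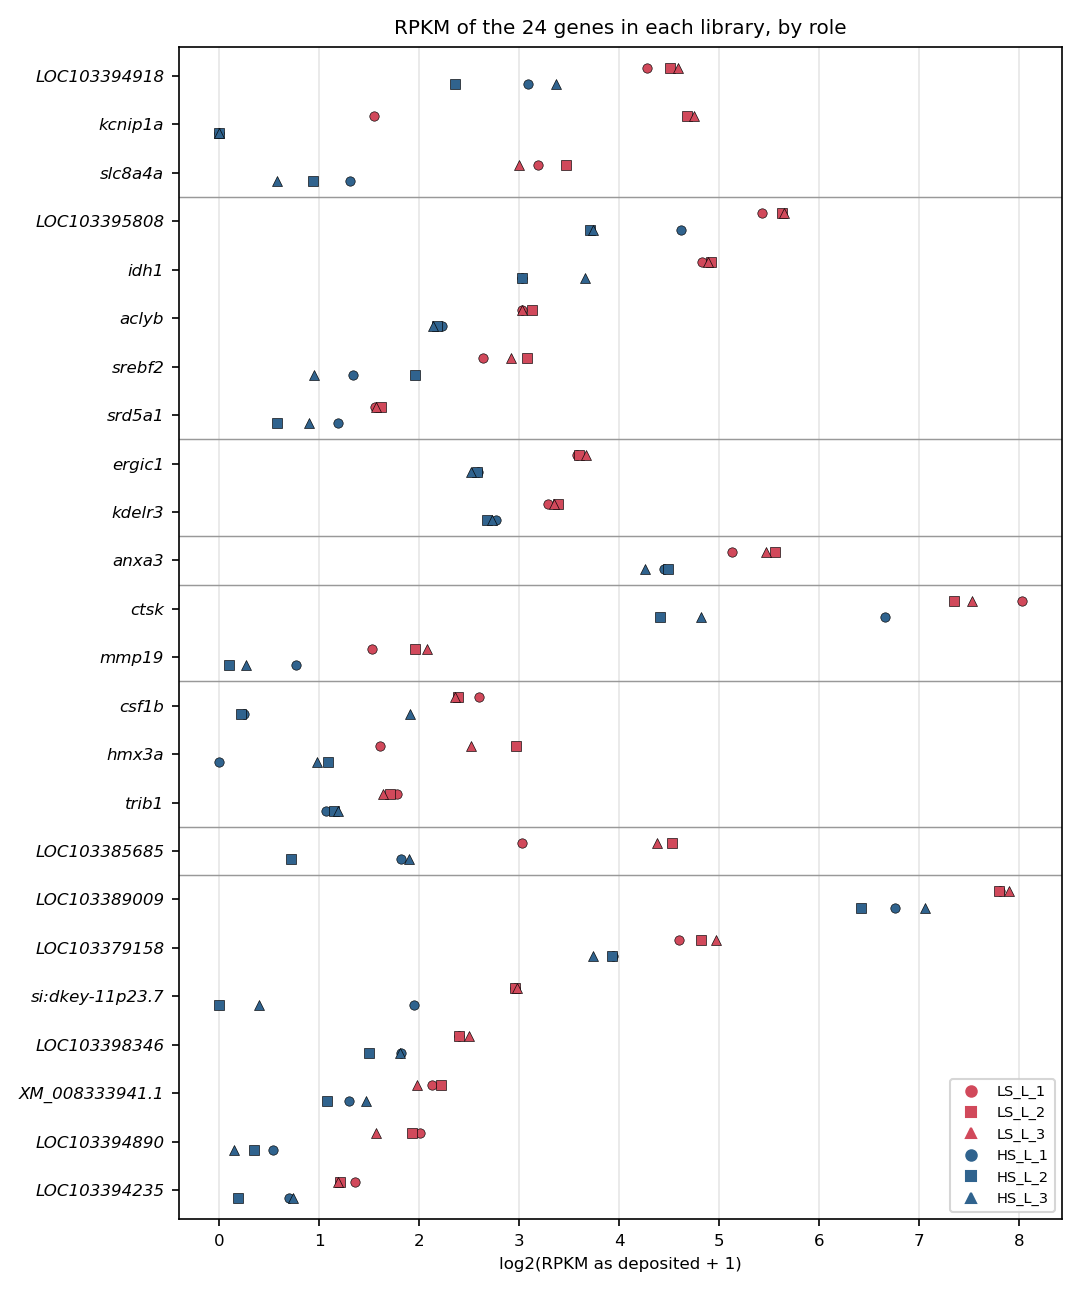
log2(RPKM as deposited + 1) of the 24 genes (rows, grouped by role from transport at the top to genes without an assigned role at the bottom) in LS_L libraries (red, upper points of each row) and HS_L libraries (blue, lower points). Red and blue never cross within a row, by the choice of the genes. For kcnip1a and LOC103385685 the LS_L_1 point stands farthest below the other red points.

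Both genes of the secretory pathway cycle between the ER and the Golgi. The ergic1 protein resides in the compartment between them, and kdelr3 is a receptor that returns escaped ER proteins. The ergic1 transcript (chromosome 15, 13687926 to 13704625, plus strand) had 10.96, 11.1 and 11.7 RPKM in LS_L_1, LS_L_2 and LS_L_3, against 5.03, 4.99 and 4.73 RPKM in HS_L_1, HS_L_2 and HS_L_3. The kdelr3 transcript (chromosome 17, 12403219 to 12406507, minus strand) had 8.81, 9.51 and 9.20 RPKM in LS_L_1, LS_L_2 and LS_L_3, against 5.82, 5.402 and 5.63 RPKM in HS_L_1, HS_L_2 and HS_L_3. Both were tight within each group in deposited RPKM, at 11.3 ± 0.391 RPKM in LS_L and 4.92 ± 0.163 RPKM in HS_L for ergic1 and at 9.17 ± 0.350 RPKM in LS_L and 5.62 ± 0.208 RPKM in HS_L for kdelr3 (SD, n = 3 each). The log2 fold changes were 1.06 (SE 0.23) and 0.63 (SE 0.22). The membrane gene anxa3, an annexin that binds phospholipids in the presence of calcium (chromosome 14, 4052614 to 4058759, plus strand), had 34.0, 46.1 and 43.4 RPKM in LS_L_1, LS_L_2 and LS_L_3, against 20.8, 21.4 and 18.1 RPKM in HS_L_1, HS_L_2 and HS_L_3. LS_L_1 was its lowest LS_L pool, and the ratio of the means was 2.04.

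The proteases were the lysosomal cysteine protease ctsk, which degrades collagen, and mmp19, a secreted metalloproteinase of the extracellular matrix. The ctsk transcript (chromosome 13, 14662604 to 14673509, minus strand) had 260, 162 and 183 RPKM in LS_L_1, LS_L_2 and LS_L_3, against 100.2, 20.3 and 27.3 RPKM in HS_L_1, HS_L_2 and HS_L_3. In these deposited values it was highest in LS_L_1 within LS_L and in HS_L_1 within HS_L. Its log2 fold change was 2.35 (SE 0.48), between 1.99 and 2.89 with any 1 library left out. The mmp19 transcript (chromosome 11, 4954191 to 4958159, minus strand) had 1.89, 2.90 and 3.21 RPKM in LS_L_1, LS_L_2 and LS_L_3, against 0.702, 0.0741 and 0.208 RPKM in HS_L_1, HS_L_2 and HS_L_3. It was low everywhere, with 24, 3 and 8 reads in HS_L_1, HS_L_2 and HS_L_3.

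In mammals cathepsin K is a product of cells of the macrophage line, and CSF1 is the growth factor of macrophages, so leukocyte markers are given beside both genes. Of 21 matched leukocyte features, 4 were at 0 in every library, all of them transcripts of ptprc and cd8a. Transcripts of the same gene were counted apart, and the authors removed reads that mapped to multiple genes. These 0 values therefore do not show that the genes were absent. The summed level of the list was 4926, 794 and 823 RPKM in LS_L_1, LS_L_2 and LS_L_3, against 1652, 435 and 899 RPKM in HS_L_1, HS_L_2 and HS_L_3. In deposited RPKM the LS_L_1 and HS_L_1 pools were the highest of their groups, as for ctsk. Under size factors the list stayed highest in LS_L_1, at 3922, 811 and 1021 RPKM in LS_L_1, LS_L_2 and LS_L_3. There ctsk was highest in LS_L_3, at 207, 165 and 227 RPKM in LS_L_1, LS_L_2 and LS_L_3. The groups of the list overlapped under either scaling. Those of ctsk were apart by its choice, so no contrast with the list can be drawn from this. Of 15 tested leukocyte features, 12 had a positive log2 fold change under size factors, with a median of 0.30, and 0 were without overlap. Over all features tested 5061 of 9343 were positive, and the median was 0.03. The highest means of the list were those of lyz, cd74a and mmp9. The macrophage receptor csf1ra had 16.999, 3.28 and 3.33 RPKM in LS_L_1, LS_L_2 and LS_L_3, against 6.48, 1.65 and 4.82 RPKM in HS_L_1, HS_L_2 and HS_L_3. Their part in the ctsk and csf1b values was not tested, and in bulk liver fewer cells of a type and less RNA per cell cannot be told apart.

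The growth factor gene csf1b (chromosome 10, 19904476 to 19908916, minus strand) had 5.05, 4.23 and 4.12 RPKM in LS_L_1, LS_L_2 and LS_L_3, against 0.193, 0.163 and 2.75 RPKM in HS_L_1, HS_L_2 and HS_L_3. HS_L_3 stood far above the other HS_L pools and alone set its ratio of 1.5003, with 48 reads where HS_L_1 and HS_L_2 had 3 each. The homeobox gene hmx3a (chromosome 12, 3751586 to 3753341, plus strand), a regulator of inner ear and lateral line development in zebrafish, had 2.04, 6.82 and 4.75 RPKM in LS_L_1, LS_L_2 and LS_L_3, against 0, 1.13 and 0.973 RPKM in HS_L_1, HS_L_2 and HS_L_3. The groups did not overlap, but LS_L_1 was nearer to HS_L_2 and HS_L_3 than to LS_L_2. The pseudokinase trib1, which in mouse liver restrains lipid synthesis, had 2.11 to 2.43 RPKM in LS_L and 1.09 to 1.28 RPKM in HS_L, with a log2 fold change of 0.58 (SE 0.19) that became 0.88 with a pseudocount of 0.1 and 0.92 with limma-voom.

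The only cilium gene was LOC103385685 (chromosome 11, 426459 to 432694, plus strand), annotated as CCDC114-like. The human CCDC114 protein anchors dynein arms in motile cilia. It had 7.195, 22.1 and 19.8 RPKM in LS_L_1, LS_L_2 and LS_L_3, against 2.52, 0.642 and 2.74 RPKM in HS_L_1, HS_L_2 and HS_L_3. LS_L_1 was again the lowest LS_L pool, and the ratio of the means was 8.32, with a log2 fold change of 2.54 (SE 0.57).

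The other 7 genes have no role that the annotation gives. The most abundant, LOC103389009 (chromosome 13, 21831117 to 21832469, plus strand), had 223, 222 and 238 RPKM in LS_L_1, LS_L_2 and LS_L_3, against 107, 84.6 and 133 RPKM in HS_L_1, HS_L_2 and HS_L_3. It lies 7819 bases from apoeb, the apolipoprotein E gene on the other strand, which did not reach the ratio of 1.5 and also had a mean over 500 RPKM. The apoeb transcript had 2098, 1908 and 1863 RPKM in LS_L_1, LS_L_2 and LS_L_3, against 601, 1054 and 1361 RPKM in HS_L_1, HS_L_2 and HS_L_3, a ratio of the lowest LS_L to the highest HS_L library of 1.37. The groups did not overlap for either gene in deposited RPKM, with HS_L_3 the highest HS_L pool of both. LOC103389010 lies nearer, at 2189 bases on the strand of apoeb, and its groups overlapped. It had 730, 1519 and 1611 RPKM in LS_L_1, LS_L_2 and LS_L_3, against 2591, 1487 and 105 RPKM in HS_L_1, HS_L_2 and HS_L_3. XM_008324267.1, at 14379 bases, had a log2 fold change of 0.02.

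The transcript si:dkey-11p23.7 (chromosome 13, 3550632 to 3552586, minus strand) had 6.78, 6.80 and 6.87 RPKM in LS_L_1, LS_L_2 and LS_L_3, against 2.87, 0 and 0.320 RPKM in HS_L_1, HS_L_2 and HS_L_3. The LS_L pools were nearly equal, and the HS_L reads numbered 40, 0 and 5. LOC103379158 (chromosome 1, 11282966 to 11291065, minus strand) had 23.3, 27.3 and 30.3 RPKM in LS_L_1, LS_L_2 and LS_L_3, against 14.4, 14.3 and 12.4 RPKM in HS_L_1, HS_L_2 and HS_L_3. LOC103398346 (chromosome 2, 10508142 to 10513826, minus strand), which overlaps serpinb1 on the other strand, had 4.28, 4.29 and 4.67 RPKM in LS_L_1, LS_L_2 and LS_L_3, against 2.54, 1.83 and 2.50 RPKM in HS_L_1, HS_L_2 and HS_L_3. Both had a ratio of means just under 2. XM_008333941.1 on chromosome 20, at a place where RefSeq has both prss56 and LOC103395968, had 2.94 to 3.67 RPKM in LS_L and 1.11 to 1.77 RPKM in HS_L.

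Some of the genes lie beside a transcript whose values are given here with theirs. The uncharacterized LOC103394890 (chromosome 19, 3413517 to 3429896, minus strand) lies 201 bases downstream of slc8a4a on the same strand and is itself among the 24. It had 3.03, 2.81 and 1.97 RPKM in LS_L_1, LS_L_2 and LS_L_3, against 0.449, 0.276 and 0.109 RPKM in HS_L_1, HS_L_2 and HS_L_3. Its level was 0.372, 0.280 and 0.283 of that of slc8a4a in LS_L_1, LS_L_2 and LS_L_3, and 0.303, 0.301 and 0.218 of it in HS_L_1, HS_L_2 and HS_L_3. Both genes were chosen for LS_L values above their HS_L values, so their shared difference between the groups was set by the choice. Within LS_L the highest pool was LS_L_2 for slc8a4a and LS_L_1 for LOC103394890. The HS_L shares rest on 22, 16 and 6 reads of LOC103394890 in HS_L_1, HS_L_2 and HS_L_3.

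In 4 other cases the later RefSeq annotation of the same assembly joins the transcript and its neighbour into 1 gene. RefSeq places LOC103385685 at 417720 to 432791 on chromosome 11, which takes in XM_008319660.1, a separate transcript in the deposited table. XM_008319660.1 had 0.342, 2.42 and 2.01 RPKM in LS_L_1, LS_L_2 and LS_L_3, against 0, 0.0619 and 0 RPKM in HS_L_1, HS_L_2 and HS_L_3, with LS_L_1 the lowest LS_L pool of both. Its groups did not overlap. The study lists it as a gene of its own, a taste receptor, and called it higher in LS_L. The csf1b gene of RefSeq (19902866 to 19909175 on chromosome 10) takes in the non-coding XR_522230.1, which had 12.2, 3.51 and 4.65 RPKM in LS_L_1, LS_L_2 and LS_L_3, against 0.143, 0 and 5.73 RPKM in HS_L_1, HS_L_2 and HS_L_3. HS_L_3 stood out here as it did for csf1b, and the groups overlapped for XR_522230.1. LOC103394918 and XM_008332358.1 both fall within RefSeq's LOC103394898 (4113955 to 4126002 on chromosome 19), and XM_008332358.1 had 2.58, 10.5 and 11.6 RPKM in LS_L_1, LS_L_2 and LS_L_3, against 1.45, 4.22 and 1.93 RPKM in HS_L_1, HS_L_2 and HS_L_3, with overlap between the groups.

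The fourth case is LOC103394235 (chromosome 2), the weakest of the 24. Its transcript at 3736722 to 3739700 had 1.56, 1.32 and 1.29 RPKM in LS_L_1, LS_L_2 and LS_L_3, against 0.627, 0.141 and 0.670 RPKM in HS_L_1, HS_L_2 and HS_L_3, and its mean below 1 RPKM kept it out of the fit. The second transcript of that gene, XM_008331463.1, had 1.16, 0.490 and 0.322 RPKM in LS_L_1, LS_L_2 and LS_L_3, against 0.430, 0.109 and 0.344 RPKM in HS_L_1, HS_L_2 and HS_L_3, with overlap. Over the 45 tested neighbours within 20 kb that are not among the 24, 4 had groups that did not overlap with LS_L higher (8.89%, beside 7.8% of all features tested under size factors), and their median log2 fold change was 0.09. The 24 genes lay on 14 chromosomes with at most 3 on any 1 of them, and the median transcript length was 1799 bases, beside 1859 bases over the features tested.

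**Figure D3:**
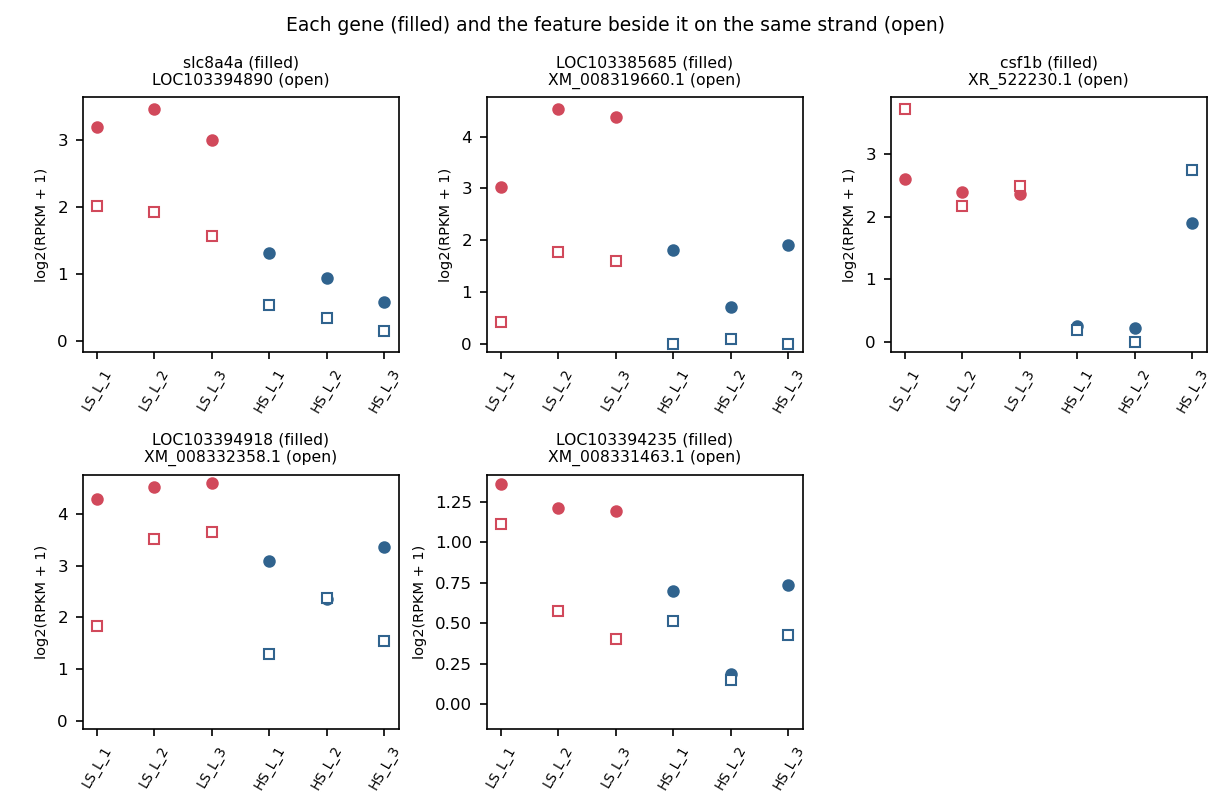
log2(RPKM + 1) in the 3 LS_L libraries (red, left) and the 3 HS_L libraries (blue, right) for 5 of the genes (filled) and the neighbouring transcript on the same strand (open). slc8a4a and LOC103394890 keep the same order of groups, which the choice of both genes fixed, and HS_L_3 stands out for both csf1b and XR_522230.1.

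The deposited transcript events, made from the same reads and so no independent measure, covered 9 of the 24 genes. The summed FPKM of transcripts that carry a start event was 204, 138 and 153 for ctsk in LS_L_1, LS_L_2 and LS_L_3, against 77.0, 16.4 and 22.02 in HS_L_1, HS_L_2 and HS_L_3. For idh1 it was 22.4, 25.1 and 24.9 FPKM in LS_L_1, LS_L_2 and LS_L_3, against 5.66, 6.31 and 10.00 FPKM in HS_L_1, HS_L_2 and HS_L_3. The order of the libraries was that of the RPKM for ctsk and idh1. Start events of 8 genes had an FPKM, and the groups did not overlap for 6 of them. The genes had been picked for groups apart in the same reads, and the share over all features with start events was not counted. They overlapped for anxa3, with 18.3 and 29.2 FPKM in LS_L_1 and LS_L_2 and no start event in LS_L_3, against 0, 22.3 and 0 FPKM in HS_L_1, HS_L_2 and HS_L_3. They also overlapped for XM_008333941.1, with 1.61, 2.68 and 1.26 FPKM in LS_L_1, LS_L_2 and LS_L_3, against 1.05, 0 and 1.40 FPKM in HS_L_1, HS_L_2 and HS_L_3. Both genes were thus apart in RPKM and not in the FPKM of start events. For end events the groups did not overlap for 8 of 9 genes, and anxa3 was again the exception. XM_008333941.1 had 4.39, 2.21 and 4.24 FPKM there in LS_L_1, LS_L_2 and LS_L_3, against 1.05, 1.07 and 1.40 FPKM in HS_L_1, HS_L_2 and HS_L_3. LOC103385685 carried most entries of splicing events, with 16, 10 and 18 in LS_L_1, LS_L_2 and LS_L_3 and 4, 4 and 6 in HS_L_1, HS_L_2 and HS_L_3. Each of its events has an entry for the form with the intron and another for the form without, so entries outnumber events. The number of entries per read was not tested.

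In deposited RPKM, LS_L_1 was the lowest LS_L library for 16 of the 24 genes (66.7%, beside 19.2% of the features tested). After scaling by size factors, LS_L_1 was the lowest for 23 of 24 (95.8%, beside 43.8% of the features tested). LS_L_3 was then the highest for 20 of 24 (83.3%, beside 38.9%). The conditions used the lowest deposited LS_L value and capped LS_L_1, so this order is not independent of the choice and is given as a description. Within HS_L, HS_L_1 was lowest for 11 of 23 genes, HS_L_2 for 8 and HS_L_3 for 4 after the same scaling. These were 47.8%, 34.8% and 17.4% of the genes, beside 36.6%, 38.7% and 24.8% of the features tested.

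Size factors divide the deposited RPKM by 1.26 in LS_L_1, 0.979 in LS_L_2 and 0.806 in LS_L_3, and by 1.22 in HS_L_1, 0.884 in HS_L_2 and 0.936 in HS_L_3. The median SD of log2(RPKM + 1) within LS_L was 0.13 for the 23 genes in deposited RPKM, the values that chose them, and 0.34 after scaling by size factors. The closeness of the LS_L pools of genes such as si:dkey-11p23.7, idh1 and ergic1 thus held in deposited RPKM and not after scaling. With size factors ergic1 had 8.73, 11.4 and 14.5 RPKM in LS_L_1, LS_L_2 and LS_L_3, against 4.13, 5.64 and 5.05 RPKM in HS_L_1, HS_L_2 and HS_L_3.

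The absence of overlap held for 24 of 24 genes in deposited RPKM, by their choice. It also held for all 24 under size factors and under TMM factors, and the choice fixed this too. No LS_L library is divided by 1.5 times as much as an HS_L library, so a ratio of 1.5 in deposited RPKM cannot fall to 1. Over the features tested, groups did not overlap with LS_L higher for 5.14% in deposited RPKM, 7.8% under size factors and 7.67% under TMM factors, and with LS_L lower for 5.16%, 4.94% and 5.22%. The ratio of 1.5 was kept by 11 of the 24 under size factors and by 11 under TMM factors, and the median ratio was 1.80 in deposited RPKM and 1.47 under size factors. Those 11 were slc8a4a, LOC103394890, kcnip1a, mmp19, LOC103385685, idh1, si:dkey-11p23.7, ergic1, LOC103394235, LOC103395808 and ctsk. Applied to RPKM scaled by size factors from the start, the conditions found 24 transcripts, the same 11 and 13 others.

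**Figure D4:**
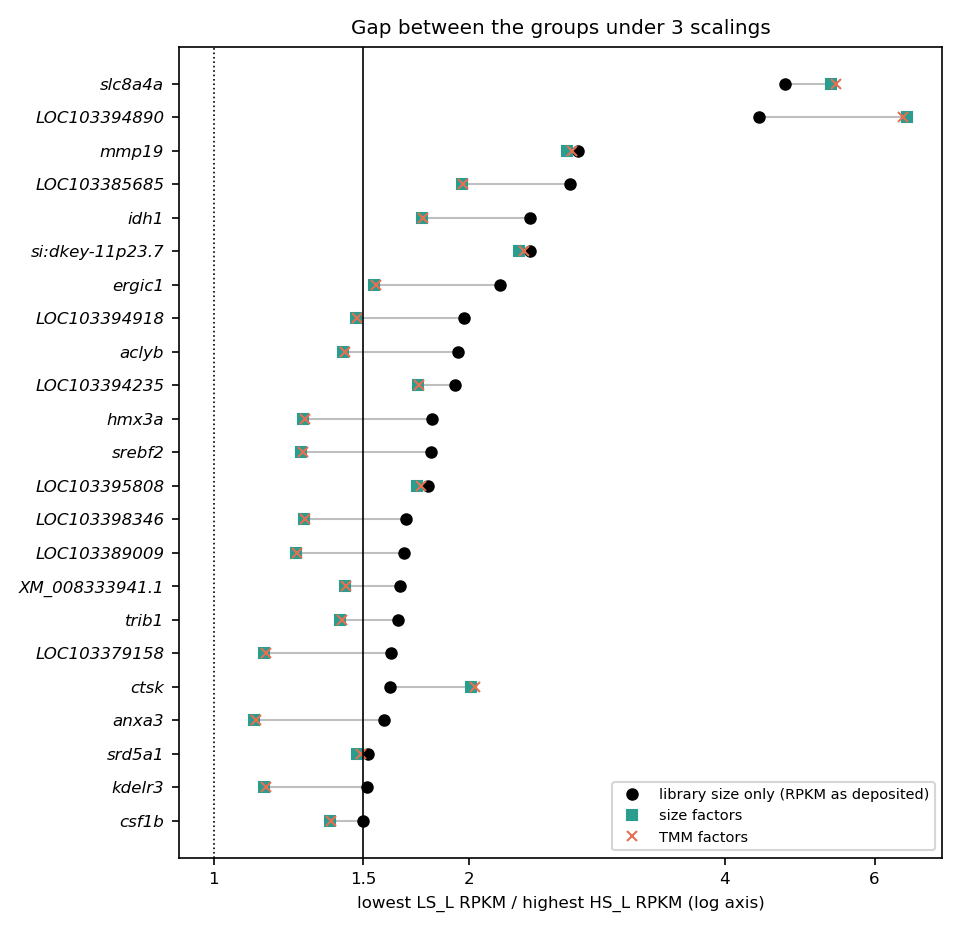
Lowest LS_L RPKM over highest HS_L RPKM (log axis) for 23 of the 24 genes in deposited RPKM (circles), under size factors (squares) and under TMM factors (crosses), with kcnip1a left out because its HS_L values are 0. No point falls below the dotted line at 1, which the choice of the genes fixed in advance, and 10 of the 23 squares lie right of the solid line at 1.5.

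The median log2 fold change of the 23 fitted genes was 1.503, beside 0.03 over all features tested, and it was the same with kcnip1a set at its lower bound. Pathways were followed in 13 lists matched by gene symbol, of which 4 hold any of the 24 genes. Beside the counts of positive log2 fold changes in the lists below, 5061 of all 9343 features tested were above 0 under size factors. In deposited RPKM 4999 were. Of 271 features on the 13 lists that were tested, 0 were called by limma and 0 by limma-voom. An unadjusted p under 0.05 was found for 35 and 33 of them in the 2 fits, beside 614 and 578 of the 9343 features tested. Both counts on the lists include genes of the set, which were picked on these libraries.

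For fatty acid synthesis and NADPH supply, 20 features were tested, 16 of them with a positive log2 fold change (15 in deposited RPKM), and the median was 0.25. Groups did not overlap with LS_L higher for 3 of 20 (15.0%, beside 7.8% of all features tested), namely idh1, aclyb and pgd, an NADPH-producing enzyme of the pentose phosphate route. In deposited RPKM 5 of the 20 were higher (25.0%, beside 5.14%) and 2 lower (beside 5.16%) in LS_L without overlap. Both counts of higher features hold idh1 and aclyb, which are apart by their choice. Under size factors only pgd was not set by the choice. The pgd transcript had 61.5, 43.2 and 40.4 RPKM in LS_L_1, LS_L_2 and LS_L_3, against 39.2, 31.5 and 31.5 RPKM in HS_L_1, HS_L_2 and HS_L_3. Fatty acid synthase, fasn, had 10.9, 19.8 and 16.9 RPKM in LS_L_1, LS_L_2 and LS_L_3, against 9.57, 8.99 and 10.9 RPKM in HS_L_1, HS_L_2 and HS_L_3, and its groups overlapped under size factors.

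Of 7 tested features of SREBP2 and cholesterol uptake, srebf2 and hmgcra were higher in LS_L without overlap under size factors (28.6%, beside 7.8% of all features tested). Of these, srebf2 was apart by its choice. The rate-limiting enzyme hmgcra, which lies on Z, had 174, 199.99 and 172 RPKM in LS_L_1, LS_L_2 and LS_L_3, against 60.4, 47.7 and 12.7 RPKM in HS_L_1, HS_L_2 and HS_L_3. The LDL receptor ldlra had 22.2, 37.1 and 25.9 RPKM in LS_L_1, LS_L_2 and LS_L_3, against 10.5, 12.7 and 19.1 RPKM in HS_L_1, HS_L_2 and HS_L_3. Its groups were apart in deposited RPKM and overlapped under size factors. The partner regulator of fatty acid synthesis, srebf1, had 7.95, 8.92 and 7.66 RPKM in LS_L_1, LS_L_2 and LS_L_3, against 9.73, 12.5 and 14.0 RPKM in HS_L_1, HS_L_2 and HS_L_3, a log2 fold change of -0.49 (SE 0.28) beside 1.47 for srebf2, with the difference not tested.

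The COPII and COPI coats, which carry cargo from the ER to the Golgi and back, had 44 tested features, 35 with a positive log2 fold change and a median of 0.25. Groups did not overlap with LS_L higher for 7 of 44 (15.9%, beside 7.8% of all features tested) under size factors. In deposited RPKM 13 of 44 (29.5%, beside 5.14%) were higher and 2 others lower (beside 5.16%) in LS_L without overlap. Both counts of higher features hold ergic1 and kdelr3, which are apart by their choice. Cargo receptor tmed10 had 153, 160 and 162 RPKM in LS_L_1, LS_L_2 and LS_L_3, against 124, 107 and 93.8 RPKM in HS_L_1, HS_L_2 and HS_L_3. The coat subunit copb1 had 20.5, 21.6 and 19.2 RPKM in LS_L_1, LS_L_2 and LS_L_3, against 14.9, 14.1 and 14.7 RPKM in HS_L_1, HS_L_2 and HS_L_3. The other KDEL receptor tested, kdelr2b, had 30.2, 31.6 and 29.1 RPKM in LS_L_1, LS_L_2 and LS_L_3, against 19.7, 23.72 and 18.7 RPKM in HS_L_1, HS_L_2 and HS_L_3, and its groups overlapped under size factors. The steps before these coats, ER translocation and N-glycosylation, had 33 of 37 features with a positive log2 fold change and a median of 0.37. Groups were apart with LS_L higher for 9 of 37 (24.3%, beside 7.8% of all features tested) under size factors, dpagt1 among them. In deposited RPKM they were so for 11 of 37 (29.7%, beside 5.14%). For ER protein folding 4 of 42 (9.52%, beside 7.8% of all features tested) were higher without overlap under size factors. In deposited RPKM 10 of 42 (23.8%, beside 5.14%) were higher and 1 lower without overlap, and the median was 0.22 under either scaling.

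Of 20 lysosomal features tested, ctsk among them, 10 had a positive log2 fold change (9 in deposited RPKM), and the median was -0.01 under size factors and -0.02 in deposited RPKM. Under size factors groups did not overlap with LS_L higher for 2 of 20 (10.0%, beside 7.8% of all features tested). They were ctsk, apart by its choice, and atp6v0cb, a proton pump subunit. Without overlap and lower in LS_L was ctsf (5.0%, beside 4.94%). Deposited RPKM gave 1 of 20 in each direction, beside 5.14% higher and 5.16% lower. The cathepsin ctsla, with more RPKM than ctsk in every library, had 320, 292 and 278 RPKM in LS_L_1, LS_L_2 and LS_L_3, against 321, 303 and 282 RPKM in HS_L_1, HS_L_2 and HS_L_3. The proteasome list, which holds none of the 24 genes, had 13 of 28 features without overlap and LS_L higher under size factors (46.4%, beside 7.8% of all features tested). In deposited RPKM it had 8 of 28 (28.6%, beside 5.14%). Under either scaling 0 were lower without overlap, and the median was 0.31 under size factors.

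**Figure D5:**
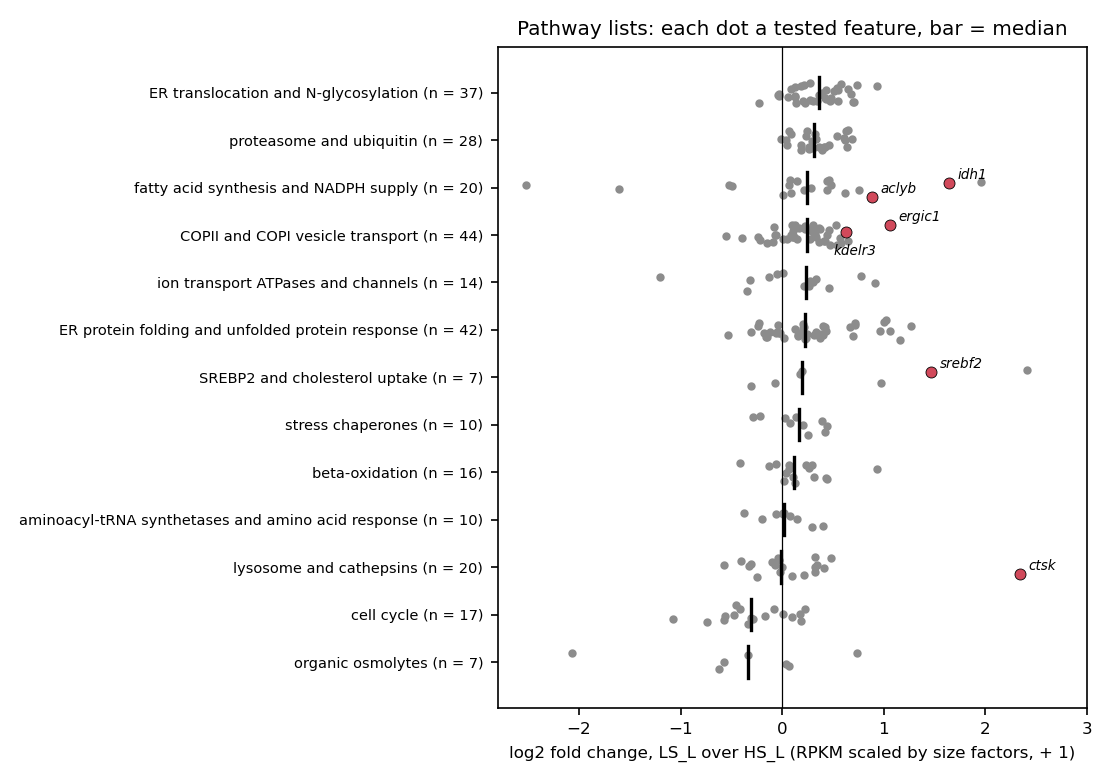
log2 fold change (LS_L over HS_L, RPKM scaled by size factors, plus 1) of every tested feature of 13 pathway lists, with the genes of the set in red and named and the median of each list as a bar. ctsk lies far from the other 19 lysosomal features, and idh1 and aclyb lie right of the median of 0.25 of their list. The genes in red were chosen for higher LS_L values, so their place to the right is no independent result.

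Markers of hepatocytes, among them apoa1b, tfa and hpxb as the most abundant, summed to 80584 to 108061 RPKM in LS_L and 109531 to 179507 RPKM in HS_L, without overlap in deposited RPKM. Scaled by size factors they came to 64167 to 134054 RPKM in LS_L and 89804 to 203100 RPKM in HS_L and overlapped. Of 19 tested hepatocyte features, 1 was lower in LS_L without overlap (5.26%, beside 4.94% of all features tested). Another 1 was higher without overlap (5.26%, beside 7.8%). Their median log2 fold change was -0.35, and 3 of the 19 were above 0. In all, 2 of the 24 matched hepatocyte features (cp and hpda) were at 0 in every library. A 0 for a feature does not show that its gene was absent. The summed markers of other cell types overlapped between the groups under either scaling. Exocrine pancreas markers summed to 29.4 to 102 RPKM in LS_L and 71.9 to 3143 RPKM in HS_L, and skeletal muscle markers to 2.43 to 41.2 RPKM in LS_L and 7.21 to 68.3 RPKM in HS_L. A sum follows its most abundant features. Of 5 tested exocrine pancreas features, 0 had a log2 fold change above 0, with a median of -2.64. Under size factors 1 of these 5 was lower in LS_L without overlap (20.0%, beside 4.94%). For skeletal muscle 1 of 6 was above 0, with a median of -1.03, and 0 were without overlap. RPKM are shares of a library, and the part of these sums in the values of the 24 genes was not tested.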

How the data were processed

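Total RNA of pooled livers was sequenced for 3 LS_L and 3 HS_L libraries, grouped by their labels. The authors aligned paired-end reads to Cse_v1.0 with TopHat, kept reads that mapped to 1 place, counted them per feature with HTSeq and deposited RPKM. A deposited feature table gave position and length (other, in bases) and a signal per group, the authors' mean of reads divided by size factors. Means of the recovered reads came out within 1% of the authors' signal for all 47 values above 0 of the 24 genes. Deposited event files hold the FPKM of assembled transcripts, with the tool not given in the sources used here.

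Whole reads were recovered from RPKM times length, and over 99.8% of values above 0 were whole within 0.05. Size factors, TMM factors (an own implementation) and normalized reads (reads over size factor) were computed from them. The main fit was limma 3.58.1 in R 4.3.3 (lmFit, eBayes with trend and robust) on log2(RPKM scaled by size factors + 1), where 1 is the pseudocount. Features needed a mean of 1 RPKM or more. A call asked for a log2 fold change past 1 in size and a Benjamini-Hochberg adjusted p below 0.05. Python 3.11.15, pandas 2.3.3, numpy 2.4.6 and matplotlib 3.10.9 did the rest. Tested on simulated counts for LS_L against HS_L (9343 features, dispersion 0.1), the fit called 173 of the 200 features given a true log2 difference of 2 and gave none of them a reversed sign. It also called 10 features that had no difference. The floor of 3 reads covers counting error only, while each SD and SE rests on the spread between tank pools.

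The members of the set, the pathway and cell type lists and the tests were chosen with earlier results of these data known. Genes were named by these rules: on a pathway list or named by the study, among the 15 largest ratios or the 8 highest means, or nearest the threshold. Other genes of the set are given by range, and genes outside it only from the list of a named member. The paralogs, neighbours, overlapping transcripts, csf1ra and the proteasome list were singled out after their values were seen. Names came from RefSeq accessions (20016 features) or positions (10628), and 4107 features were not matched. Promoters and proteins were not analysed here.

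Replicate numbers come from the labels. After group means were subtracted, same-numbered libraries correlated at 0.173, 0.165 and 0.232 and crossed pairs at 0.122, 0.166 and 0.221 or at -0.273, -0.355 and -0.457. The replicate number was therefore fitted as a block in an alternative. Nothing in the labels says that tanks of the same number shared anything.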

Additional observations from a re-analysis of the deposited data

How the results depend on the processing

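The conditions found 24 transcripts in deposited RPKM, 24 under size factors, 26 under TMM factors and 24 without the condition on LS_L_1. They found 71 when the ratio asked for was lower by 0.25, 8 when it was 2, and 14 when the lowest LS_L value had to reach 5 RPKM. Of the 24 genes, 11 remained under size factors and 11 under TMM factors. The count of features called by limma was 4, and it was 4 with TMM factors, a pseudocount of 0.1 or limma-voom. It was 10 with library size alone, 1 with no filter on low values and 7 with at least 10 reads asked of every library. Leaving out 1 library gave 0 to 17 calls, with 17 when LS_L_1 was left out and 2 when HS_L_2 was. With the replicate number as a replicate block, 0 features were called and 793 had an unadjusted p under 0.05, against 614 without the block. The cause of these changes was not tested.

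The median log2 fold change of the 23 fitted genes lay between 1.32 and 1.70 with 1 library left out, and was 1.47 with library size alone, 1.66 with a pseudocount of 0.1, 1.67 with limma-voom and 1.503 in the replicate block. None of the 23 genes changed direction in any fit that held it. This carries no information on stability, because the choice had set each LS_L library above each HS_L library. The filter on reads left 17 of the 23. Values moved by more than their spread between replicates for 11 genes with limma-voom and for 10 with the pseudocount of 0.1.

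The genes were picked on the libraries that describe them, and no library outside the choice was analysed here. With 3 tanks in each group the spread is known from few values, and genes such as mmp19, srd5a1 and LOC103394235 rest on fewer than 30 reads in each HS_L library. The scaling decides how close the LS_L pools lie and how many of the genes keep the ratio. Annotation splits some genes into pieces, so a transcript is not always a gene here.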

Other observations

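The remaining pathway lists hold none of the 24 genes, and 0 of their features were called by limma under size factors. Beside the counts below, 7.8% of all features tested were higher and 4.94% lower in LS_L without overlap under size factors. In deposited RPKM these shares were 5.14% and 5.16%. A log2 fold change above 0 was found for 5061 of all 9343 features tested under size factors and for 4999 in deposited RPKM. Enzymes of beta-oxidation, which burns fatty acids, had a positive log2 fold change for 13 of 16 features with a median of 0.12. Groups without overlap and with LS_L higher numbered 0 of 16 under size factors and 4 of 16 in deposited RPKM. Genes of organic osmolytes had a median of -0.33 over 7 features, 3 of them above 0, with 1 higher and 2 lower in LS_L without overlap (3 lower in deposited RPKM). Ion transport ATPases and channels had 9 of 14 features above 0 under size factors (8 in deposited RPKM) and a median of 0.24, with 0 higher and 1 lower without overlap (1 higher and 2 lower in deposited RPKM). Cell cycle genes had a median of -0.31 over 17 features, 5 of them above 0 (4 in deposited RPKM), and 0 were without overlap (1 higher in deposited RPKM). Stress chaperones had 8 of 10 features above 0, a median of 0.17 and 2 higher in LS_L without overlap, with 1 lower in deposited RPKM. Aminoacyl-tRNA synthetases and genes of the amino acid response had 7 of 10 features above 0 (6 in deposited RPKM) and a median of 0.02.

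Summed markers of the other cell types overlapped between the groups in deposited RPKM and under size factors. They came to 633 to 706 RPKM in LS_L and 305 to 1049 RPKM in HS_L for red blood cells, 34.3 to 55.5 RPKM in LS_L and 38.0 to 59.0 RPKM in HS_L for bile duct and intestine, and 44.5 to 97.3 RPKM in LS_L and 43.1 to 287 RPKM in HS_L for endothelium and stellate cells. Ovary and egg markers came to 0.678 to 74.8 RPKM in LS_L and 2.92 to 104 RPKM in HS_L, and endocrine pancreas markers to 1.38 to 4.29 RPKM in LS_L and 0.667 to 4.67 RPKM in HS_L. For endothelium and stellate cells, 2 of 11 tested features had a log2 fold change above 0, with a median of -0.37. Under size factors 2 of these 11 were lower in LS_L without overlap (18.2%, beside 4.94%). Features above 0 numbered 0 of 4 for ovary and egg, 2 of 2 for red blood cells and 4 of 5 for bile duct and intestine.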
